A study of Mus musculus with 2 samples.

Results

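Weak but repeated sites of open chromatin were described in the right cerebral cortex of adult female B6CASTF1/J mice aged 18 to 20 months, first-generation hybrids of C57BL/6J and CAST/EiJ. Open chromatin was mapped by DNase-seq, which reads out where the enzyme DNase I cuts nuclear DNA. The series holds 2 biological replicates of 1 group, with no treatment, no second genotype and no control. Both replicates carry the same donor identifier in the labels, and no source states that these are distinct mice, so differences between them may be technical only. The tissue is a mixture of neurons, glia and vascular cells, and a weak site used by most cells cannot be told apart from a strong site used by few.

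Each library was deposited with a longer and a shorter list of peaks in mm10 coordinates. Merging the longer lists gave 169641 autosomal regions, of which 99912 (58.9%) held a peak of each replicate. The weak reproduced regions are the 14164 of these that overlapped no peak of either shorter list. They are 8.35% of all merged regions and 14.2% (exact 95% binomial interval 14.0% to 14.4%) of those found in both replicates. A further 22365 regions were in the shorter list of 1 replicate and 63383 were in the shorter lists of both. Membership was chosen on the peak lists, which rest on signal, so the peak values below describe the choice and were not tested.

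Active promoters and enhancers lose nucleosomes when transcription factors bind, and such sites are cut by DNase I more often than packed chromatin. A bound protein shields its own letters, which leaves a short stretch of few cuts called a footprint. CTCF, a zinc-finger protein that anchors chromatin loops, binds a long, strict sequence and is known for clear footprints. AP-1 factors, neurogenic basic helix-loop-helix factors and NFI factors bind shorter sequences, often at enhancers away from start sites. In a tissue of many cell types, sites used by a minority of cells, such as interneurons or microglia, are diluted by DNA from all other cells.

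The letters of the weak regions with the longest shared footprints are printed first because they carry a recurring pattern. A base is called shared when it lies in a footprint of both replicates. The sequences are RefSeq GRCm38.p6 (mm10), plus strand, 5′ to 3′, with the shared footprint bases in capitals. They come from C57BL/6J and do not show the CAST/EiJ allele of these hybrids. Regions over 300 bp or touching an exon were not printed. The names are those of the nearest protein-coding start site, which for an intergenic region says nothing about the gene served. The regions are chr4:152103161-152103328 (Plekhg5), chr12:111648432-111648559 (Mark3), chr1:55886499-55886680 (Plcl1), chr2:62627881-62628160 (Ifih1), chr7:105515241-105515455 (Cavin3) and chr6:114926500-114926640 (Vgll4).
Plekhg5: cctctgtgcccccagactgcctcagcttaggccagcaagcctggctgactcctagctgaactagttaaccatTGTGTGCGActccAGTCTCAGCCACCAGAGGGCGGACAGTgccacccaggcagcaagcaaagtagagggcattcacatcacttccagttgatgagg
Mark3: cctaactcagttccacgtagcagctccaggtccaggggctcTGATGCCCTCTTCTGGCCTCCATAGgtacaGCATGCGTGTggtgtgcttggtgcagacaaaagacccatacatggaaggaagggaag
Plcl1: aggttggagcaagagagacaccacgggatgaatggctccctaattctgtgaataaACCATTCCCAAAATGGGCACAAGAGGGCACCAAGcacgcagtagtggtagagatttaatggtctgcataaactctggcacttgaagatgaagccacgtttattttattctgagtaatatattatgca
Ifih1: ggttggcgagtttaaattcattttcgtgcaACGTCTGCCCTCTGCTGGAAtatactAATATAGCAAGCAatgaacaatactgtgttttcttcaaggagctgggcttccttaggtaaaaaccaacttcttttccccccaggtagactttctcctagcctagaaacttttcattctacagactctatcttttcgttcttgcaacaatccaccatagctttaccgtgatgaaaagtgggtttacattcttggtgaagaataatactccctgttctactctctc
Cavin3: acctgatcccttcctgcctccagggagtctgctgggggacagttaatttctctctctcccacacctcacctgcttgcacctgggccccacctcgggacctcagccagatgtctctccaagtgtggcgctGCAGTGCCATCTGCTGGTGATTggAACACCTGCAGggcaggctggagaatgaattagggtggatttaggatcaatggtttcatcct
Vgll4: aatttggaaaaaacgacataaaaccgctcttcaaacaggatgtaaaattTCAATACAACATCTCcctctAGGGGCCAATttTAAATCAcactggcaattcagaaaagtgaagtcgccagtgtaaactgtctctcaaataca

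The Plekhg5, Ifih1 and Cavin3 regions each hold a full match to the CTCF core consensus on 1 strand, and the Mark3 region holds it with 1 mismatch. The closest stretch in the Plcl1 and Vgll4 regions has 2 mismatches. The consensus has ambiguous positions and was searched on both strands. It was chosen for the search after these letters had been seen. Plekhg5 encodes a guanine nucleotide exchange factor, and the region lies in an intron 1255 bp upstream of a start site of that gene. Its value was 1.17 in replicate 1 and 2.39 in replicate 2, with 36 shared footprint bases. The Mark3 region, in an intron of a microtubule-affinity-regulating kinase, had values of 0.760 and 1.70 and 35 shared bases. The intergenic region 184565 bp from the nearest start site, that of Plcl1, had values of 0.949 and 2.67 and 34 shared bases. Ifih1 encodes a cytosolic sensor of viral RNA, and the region in its intron had 0.517 and 0.963. The Cavin3 region had 0.447 and 0.802 and the Vgll4 region 0.666 and 1.35. All 6 regions had the higher value in replicate 2.

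A second set of letters is shown for promoters, because for these genes the weak region was the only reproduced one at a start site. Each is the part of the region that overlaps no annotated exon, on the strand of the gene, with capitals for bases in a footprint of either replicate. They are chr10:56377121-56377329 (Gja1, plus strand), chr7:25788706-25788856 (Axl, minus strand) and chr7:141266482-141266556 (Irf7, minus strand).
Gja1: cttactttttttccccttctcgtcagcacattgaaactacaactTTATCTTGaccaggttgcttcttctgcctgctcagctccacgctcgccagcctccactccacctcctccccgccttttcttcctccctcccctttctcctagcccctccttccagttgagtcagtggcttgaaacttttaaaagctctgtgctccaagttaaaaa
Axl: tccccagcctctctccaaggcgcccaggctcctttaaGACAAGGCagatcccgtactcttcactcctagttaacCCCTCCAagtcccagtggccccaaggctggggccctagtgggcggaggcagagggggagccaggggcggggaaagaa
Irf7: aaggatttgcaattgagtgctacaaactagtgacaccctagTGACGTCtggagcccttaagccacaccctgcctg

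The Gja1 stretch holds the AP-1 letters TGANTCA and the Axl stretch holds the SP/KLF letters GGGGCGGGG, both sought on either strand and present in 5.96% and 0.354% of all 200 bp tiles of the autosomes. None of these stretches holds the CTCF core consensus with 1 mismatch or fewer. A match to letters is a description and not a binding site.

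The name weak fits the values of the set as a whole, with exceptions at its upper end. Peak values are the authors' deposited signal, and each region took the value of its strongest peak in each library. The median value was 0.343 in replicate 1 and 0.437 in replicate 2 for weak reproduced regions. It was 0.437 and 0.580 for regions in 1 shorter list, and 0.860 and 1.24 for regions in both shorter lists. The highest value among weak regions was 1.41 in replicate 1 and 2.67 in replicate 2. In replicate 1, 71 weak regions (0.501%) were above the median of the regions in both shorter lists, and 93 (0.657%) were in replicate 2. The lower quartile of that set was passed by 843 (5.95%) and 1072 (7.57%) weak regions. Weak regions were also narrow, with a median width of 192 bp, against 240 bp in 1 shorter list and 260 bp in both.

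**Figure D1:**
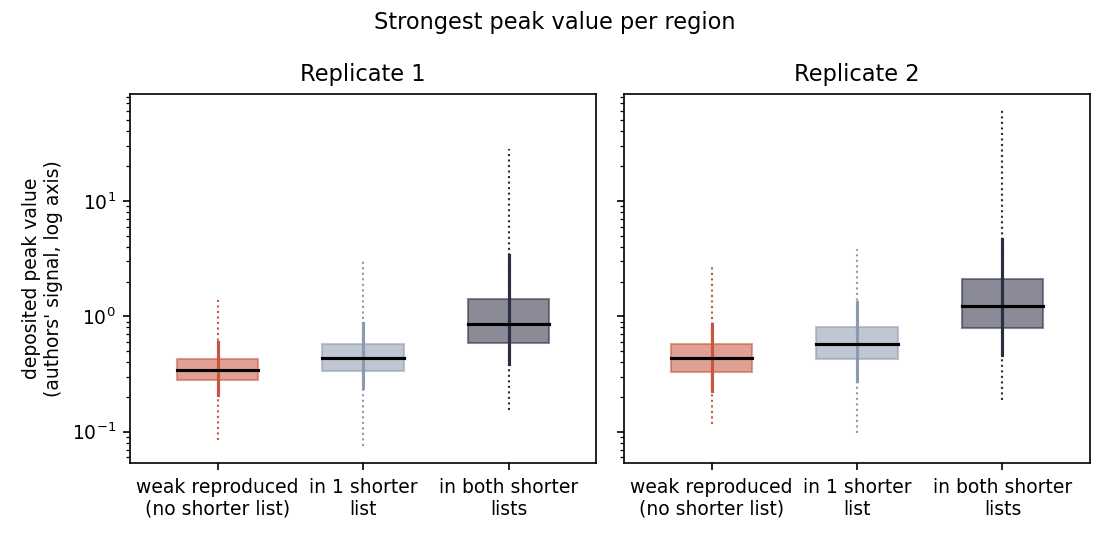
Strongest deposited peak value per region (log axis) in each replicate, for weak reproduced regions and for regions in 1 or both shorter lists. Boxes span the quartiles around the median (black line), solid lines the 5th to 95th percentile and dotted lines the full range; the weak regions have medians of 0.343 and 0.437 and overlap the lower part of the other sets.

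All values of a library were whole multiples of 1 step, within 0.05 steps. If a step is 1 read per M (mega), replicate 1 held 201 M reads and replicate 2 held 112 M, a ratio of 1.79. This depth is inferred from the values and not stated. On that reading the median value of weak regions stood for 69 reads in replicate 1 (53.7 to 87.3, exact 95% Poisson). In replicate 2 it stood for 49 reads (36.3 to 64.8). The median of regions in both shorter lists stood for 173 and 139 reads. Of the shorter-list peaks 97.7% in replicate 1 and 96.7% in replicate 2 lay inside a longer-list peak of the same value. The inferred reads may thus not be a count over the whole region. Intervals here cover counting error only.

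The replicates ranked the weak regions alike, as a description over 14164 regions that share the libraries and were selected for a peak in both. Over log2 values Pearson's r was 0.81 and Spearman's coefficient 0.80. The coefficients were 0.51 and 0.50 among regions in 1 shorter list, and 0.87 and 0.84 among those in both. The median log2 difference, replicate 1 minus replicate 2, was -0.34 in weak regions and -0.44 in regions in both shorter lists. Of the weak regions 83.5% had the higher value in replicate 2. The SD of the log2 difference was 0.35 among weak regions, against 0.27 expected at the median from counting error alone. Among regions in both shorter lists the SD was 0.50 and the counting error 0.17. Weak regions are by choice in neither shorter list, and regions in 1 shorter list are there in only 1 replicate. The choice itself thus shapes the coefficients and SDs, and differences in them between the sets cannot be read as a result.

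The deposited lists of intervals with a false discovery rate (FDR, the expected share of false calls) were set beside the peak lists at an FDR of 0.001. That value is a reference chosen here, and the limit behind the shorter lists is not given. In each replicate 100% of the regions in both shorter lists held an interval at or below 0.001. The highest lowest FDR among them was 0.000989 in replicate 1 and 0.000959 in replicate 2. The reference thus lies close to the choice of the sets, and the shares of weak regions at this level in part restate that choice. In 10945 weak regions (77.3%) no interval reached an FDR of 0.001 in either replicate. In replicate 1, 1742 weak regions (12.3%) held an interval at or below 0.001, with a median of 16 bases at that level, against 229 bases in regions in both shorter lists. In replicate 2 there were 1732 such weak regions (12.2%), also with a median of 16 bases, against 221. Just above the reference, 2033 weak regions had a lowest FDR between 0.001 and 0.002 in replicate 1 and a median value of 0.373. Just below it, 843 regions of the shorter list had a lowest FDR between 0.0005 and 0.001 and a median value of 0.427. In replicate 2 the corresponding sets held 1934 regions with a median of 0.473 and 862 regions with a median of 0.602.

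The 5 strongest weak regions were at or nearest to Nr1d1, Plekhg5, Usp2, Plcl1 and Igsf8. The first lay at the promoter of Nr1d1 (chr11:98770176-98770382), which encodes the circadian repressor REV-ERB alpha, with 1.41 in replicate 1 and 2.46 in replicate 2. Its lowest FDR was 0.00242 and 0.000670. Also among the 5 strongest was a 443 bp region in an intron of Usp2 (chr9:44085901-44086343), a ubiquitin protease whose transcripts cycle daily, with 1.27 and 2.06. The Plekhg5 and Plcl1 regions have been given above. The last of the 5, at the promoter of the immunoglobulin superfamily gene Igsf8 (chr1:172312201-172312400), had 1.18 and 2.09. All 5 were above the medians of the regions in both shorter lists in both replicates, and each had the higher value in replicate 2, from 1.63-fold at Usp2 to 2.81-fold at Plcl1. They lay between 484 bp and 13480 bp from the nearest shorter-list peak. Among the 100 strongest weak regions 26 lay within 1000 bp of such a peak, and among all weak regions 3717 (26.2%) did.

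Weak regions were mostly away from promoters and often inside introns. By their midpoints, 10.5% (exact 95% interval 10% to 11%) were at promoters, within 500 bp of an annotated start site. That is 3.10 times the 3.38% of autosomal bases so placed. Of the regions in both shorter lists 26.5% were at promoters, 7.84 times the genome share. Introns held 48.2% of the weak regions and 36.8% of the regions in both shorter lists, against 41.9% of bases. Intergenic sequence held 34.8% and 31.9%, against 50.9% of bases, and exons 6.52% and 4.81%, against 3.88%. Regions in 1 shorter list resembled the weak ones, with 10.6% at promoters and 47.2% in introns. The median distance to a protein-coding start site was 21380 bp for weak regions, 20916 bp for regions in 1 shorter list and 12184 bp for regions in both.

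**Figure D2:**
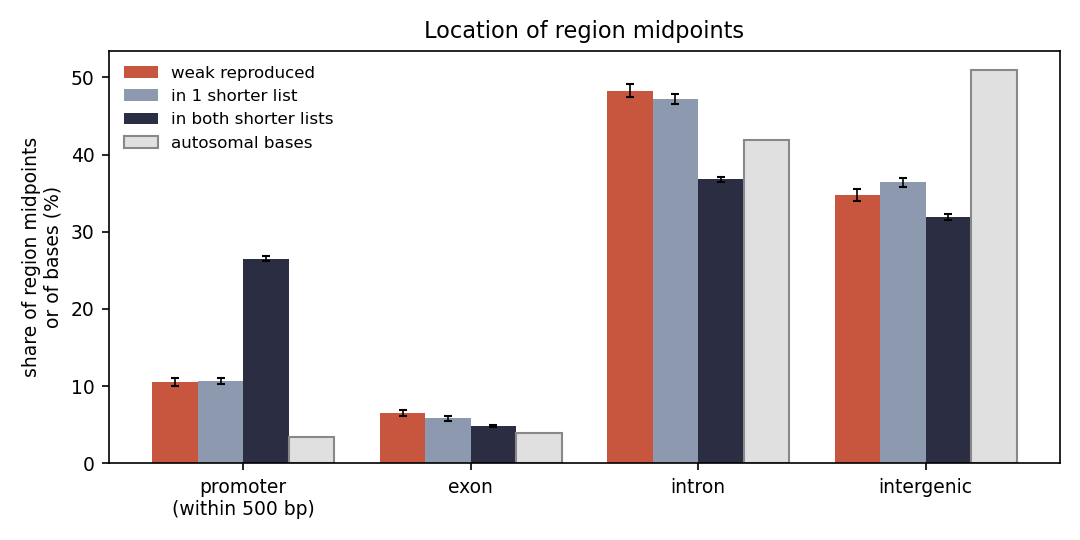
Share of region midpoints (%) in promoters, exons, introns and intergenic sequence for the 3 sets of regions, with exact 95% intervals, beside the share of autosomal bases. Promoters hold 10.5% of weak regions, against 26.5% of regions in both shorter lists.

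Location went with strength within the weak set. Weak regions in intergenic sequence had a median value of 0.303 in replicate 1 and 0.366 in replicate 2. Those in introns had 0.358 and 0.464, those in exons 0.383 and 0.508, and those at promoters 0.378 and 0.517. Among the stronger 50% of weak regions 23.9% were intergenic, against 34.8% of all of them. The kinds of genes at weak promoter regions were counted as well. Of 1484 such regions 80.1% (77.9% to 82.1%) were at a protein-coding start site, 12% at that of a long non-coding RNA and 3.91% at that of a pseudogene. For regions in both shorter lists the shares were 90.3%, 6.80% and 1.01%.

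The gap between neighbouring regions was wider in sets with fewer members. The median gap to the nearest other weak region was 42312 bp, in a set of 14164. It was 26378 bp among the 22365 regions in 1 shorter list and 6540 bp among the 63383 regions in both. Spacing apart from set size was not tested. The median gap to a shorter-list peak was 4483 bp, 2489 weak regions (17.6%) lay under 500 bp from one and 127 (0.897%) at 100000 bp or more. Density ran from 4.96 weak regions per Mb on chromosome 14 to 7 on chromosome 11. For every 100 regions in both shorter lists there were between 20.0 (chromosome 11) and 24.6 (chromosome 1) weak ones. GC content had a median of 49.0% in weak regions, against 51.4% in regions in both shorter lists. Outside promoters the medians were 48.4% and 49.1%.

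Most weak regions held a footprint in at least 1 replicate, and 16.7% held one at the same base in both. A footprint overlapped 67.9% of weak regions in replicate 1 and 51.1% in replicate 2, against 95.3% and 93.0% of regions in both shorter lists. Both replicates had one in 37.7% of weak regions, against 90.5%. Neither had one in 18.7%, against 2.17%. A base was shared in 2365 weak regions (16.7%), against 77.2% of regions in both shorter lists. Among regions with a footprint in each replicate the share with a common base was 44.3% (43.0% to 45.7%) for weak regions and 85.3% (85.0% to 85.6%) for regions in both shorter lists. Over all weak regions the mean number of footprints was 1.09 in replicate 1 and 0.761 in replicate 2. Over regions in both shorter lists it was 3.16 and 3.11. A common base is easier to meet with more footprints, and the shares were not adjusted for this.

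Read number moved with the footprints, so regions were also set side by side within classes of inferred reads, each class without its upper bound. At 60 to 80 reads in replicate 1, 71.4% (70.2% to 72.7%) of weak regions held a footprint, against 79.0% in 1 shorter list and 86.7% (85.5% to 87.8%) in both. At 100 to 150 reads the shares were 85.5%, 91.6% and 93.0%. In replicate 2, 54.5% of weak regions with 40 to 60 reads held one, against 63.4% and 76.2%. At 100 to 150 reads the shares were 89.9% (87.1% to 92.2%), 93.5% and 94.0% (93.6% to 94.4%). The gap between weak regions and regions in both shorter lists was smallest in the class of 100 to 150 reads in both replicates, and width differs between the sets as given above.

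**Figure D3:**
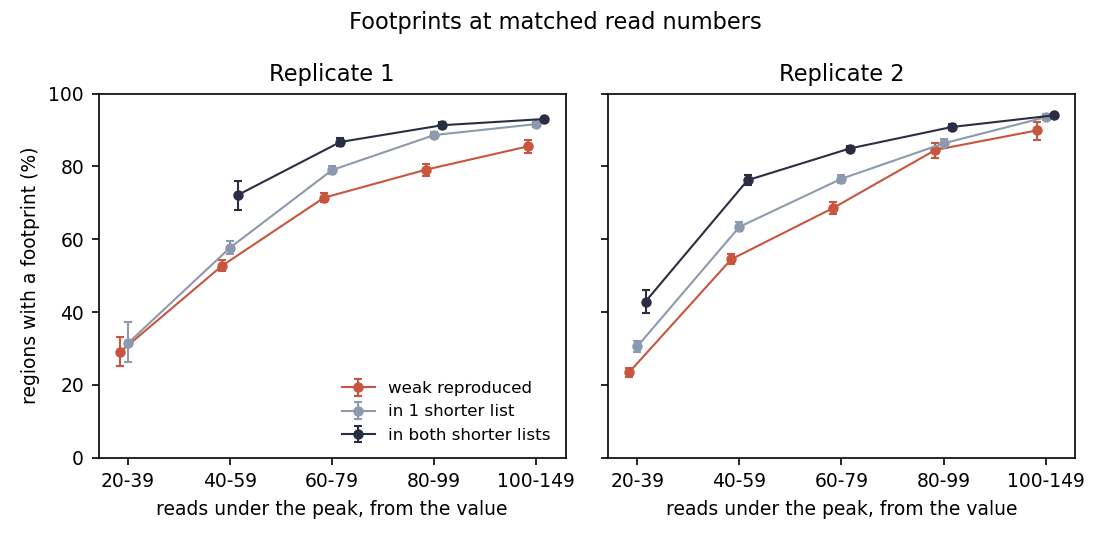
Share of regions with a footprint (%) by the number of reads inferred from the value of the strongest peak, per replicate, for the 3 sets. Bars are exact 95% intervals. In each class with all 3 sets the weak regions are lowest, with 54.5% at 40 to 60 reads in replicate 2, against 76.2% for regions in both shorter lists.

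The AP-1 letters, the E-box CAGCTG and the NFI letters had similar shares in weak regions and in the stronger set, while CTCF letters had a lower share in weak regions. Letters were sought on both strands in the 200 bp around each midpoint, outside promoters, and in all 200 bp tiles of the autosomes. The AP-1 letters TGANTCA were in 15.1% (14.4% to 15.7%) of weak regions and 15.5% (15.1% to 15.8%) of regions in both shorter lists, against 5.96% of tiles. The E-box CAGCTG, bound by basic helix-loop-helix factors, was in 18.4% (17.8% to 19.1%) and 17.9% (17.5% to 18.2%), against 7.37% of tiles. The NFI letters TTGGCANNN were in 19.8% and 18.8%, against 9.69%. The E-box CAGATGG, of the type bound by neurogenic factors, was in 11.2% (10.6% to 11.7%) and 14.2% (13.9% to 14.6%), against 3.98%. The homeobox letters TAATTA were in 4.2% and 3.37%, below the 7.15% of tiles.

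For CTCF the shares lay further apart. The fixed letters AGGGGGC were in 3.06% (2.77% to 3.37%) of weak regions, 5.25% of regions in 1 shorter list and 6.20% (5.98% to 6.42%) of regions in both, against 1.58% of tiles. The CTCF core consensus, searched after the letters above had been seen, was present in full in 1.36% (1.16% to 1.57%) of weak regions, 4.99% of regions in 1 shorter list and 7.14% (6.90% to 7.37%) of regions in both. The share of tiles was 0.0960%. With 1 mismatch allowed the shares were 7.08%, 15.1% and 19.2%, against 1.58% of tiles. The promoter letters GCGCNTGCG of NRF1, an activator of genes of respiration, were in 0.323% of weak regions and 0.734% of regions in both shorter lists outside promoters, against 0.110% of tiles.

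Within the weak set, CTCF letters were more frequent in regions with longer shared footprints. With 1 mismatch allowed the consensus was in 5.51% (5.10% to 5.94%) of the 11799 weak regions with no shared base, here with promoters included. It was in 8.93% of 1713 regions with 1 to 9 shared bases and 22.8% (19.4% to 26.5%) of 562 regions with 10 to 19. In the 90 weak regions with 20 or more shared bases it was in 45.6% (35.0% to 56.4%), that is in 41 of them, and 14 of these held it in full. The 90 include the printed regions after which the consensus was chosen, so the share of this class is in part a product of that choice. For regions in both shorter lists the shares in the same order were 4.80%, 6.09%, 12.5% and 28.2%. Value moved along as well. The median value of weak regions with no shared base was 0.328 in replicate 1 and 0.410 in replicate 2, and of those with 20 or more 0.569 and 0.932. Its part in the result was not tested.

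**Figure D4:**
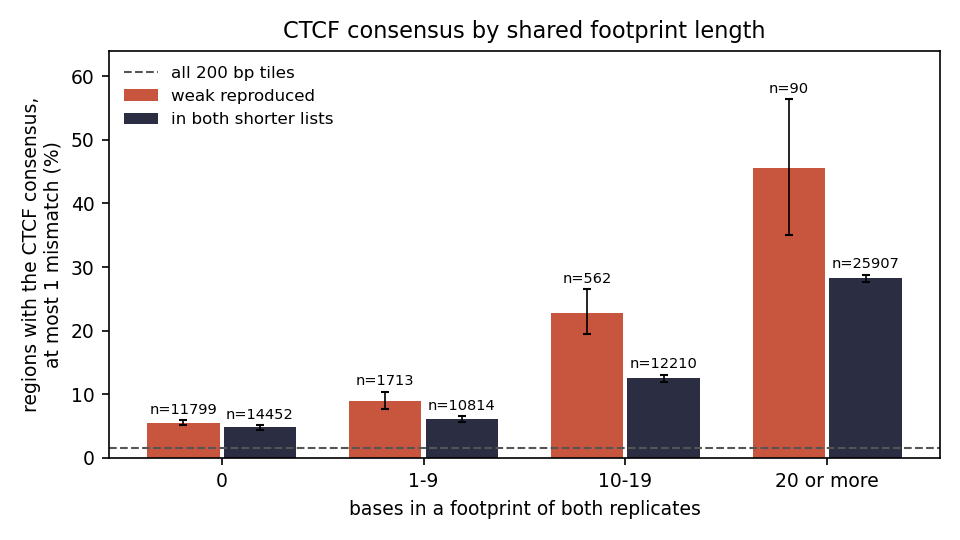
Share of regions (%) with the CTCF core consensus, at most 1 mismatch, in the 200 bp around the midpoint, by the number of bases in a footprint of both replicates; bars are exact 95% intervals, n is the number of regions and the dashed line is the share of all 200 bp tiles. Among weak regions the share is 5.51% with no shared base and 45.6% with 20 or more, a class that includes the printed regions after which the consensus was chosen.

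Few CTCF letters in weak regions lay wholly inside a footprint. The occurrences were counted over whole regions with promoters included, which are 10.5% of the weak regions and 26.5% of the regions in both shorter lists, and an occurrence partly inside a footprint was not counted. Of 1008 occurrences of the consensus with at most 1 mismatch, 91 (9.03%) lay wholly inside a footprint in replicate 1 and 103 (10.2%) in replicate 2, and 39 (3.87%, 2.77% to 5.25%) in both. In regions in both shorter lists 57.1% and 69.9% did, and 53.7% (52.8% to 54.6%) in both. Weak regions hold fewer footprints per region, as given above, and the shares in this paragraph were not adjusted for this. The CRE letters TGACGTCA, bound by CREB, lay inside in both replicates in 1 of 49 occurrences in weak regions, against 56.4% of 888. For AP-1 the shares were 0.264% of 2271 and 1.72% of 11437, and for the E-box CAGATGG 0.997% of 1605 and 13.0% of 9808.

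For a small number of genes a weak region was the only reproduced one at a start site. Of 20807 autosomal protein-coding genes, 293 (1.41%, 1.25% to 1.58%) had a weak reproduced region within 500 bp of a start site and no reproduced region from a shorter list. Of these, 273 had no shorter-list peak of either replicate there. A region in both shorter lists was found for 12306 genes (59.1%), a region in 1 shorter list at most for 616 (2.96%) and no reproduced region for 7592 (36.5%). Counting weak regions beside stronger ones, 1296 genes (6.23%) had one. The regions of the 293 genes had a median value of 0.353 in replicate 1 and 0.490 in replicate 2. A footprint overlapped 67.5% and 52.9% of them.

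Weak regions were the only reproduced promoter regions of 12 listed genes, among them the GABA pathway genes Slc32a1 and Gad2. Of 22 inhibitory neuron genes 3 (13.6%) had weak regions alone, beside the 1.41% of all genes. All gene lists here were chosen with earlier results of these data known. Their shares rest on few genes, are a description and were not tested against the share of all genes. Slc32a1, which loads GABA into vesicles, had 0.497 in replicate 1 and 0.624 in replicate 2 (chr2:158610861-158611040), 184 bp downstream of a start site. Gad2, a GABA-synthesising enzyme, had 0.338 and 0.606 (chr2:22622410-22622757), and the nearest shorter-list peak was 73749 bp away. Lhx6, a homeobox factor of interneurons from the medial ganglionic eminence, had 0.308 and 0.428 (chr2:36103369-36103660), 559 bp from a shorter-list peak. All 3 values were higher in replicate 2. Of the other inhibitory genes 11 had a region in both shorter lists, 4 had none, and Dlx5, Dlx6, Erbb4 and Gad1 had a region in 1 shorter list at most.

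Excitatory neuron genes had no gene with a weak region alone. Of 17 genes 12 had a region in both shorter lists, 4 had one in 1 shorter list at most, among them Crym, Neurod2 and Slc17a7, and 1 had none. All 17 pan-neuronal and all 18 activity-regulated genes had a region in both shorter lists. Weak regions there were additional ones. Grin1, an NMDA receptor subunit, had an additional weak region with 0.666 and 1.18, Tubb3, a neuronal tubulin, one with 0.591 and 0.758, and Eno2, a neuronal enolase, one with 0.537 and 0.740. Bdnf, an activity-induced neurotrophin with several promoters, had one with 0.497 and 0.776, 464 bp upstream of a start site.

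Among astrocyte genes 2 of 17 (11.8%) had a weak region alone, beside 1.41% of all genes. One was Gja1, which encodes the gap junction protein connexin 43, with 0.298 in replicate 1 and 0.392 in replicate 2 (chr10:56377121-56377390). Gjb6, another connexin, had a weak region with 0.293 and 0.383 beside one in 1 shorter list. Slc1a2, the main glutamate transporter, and Aldh1l1, a folate enzyme used to mark astrocytes, had weak regions beside stronger ones. Of the 17 astrocyte genes 10 had a region in both shorter lists, 2 had one in 1 shorter list at most and 3 had no reproduced region.

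Of 23 autosomal genes of interferon and age-related glia 3 (13.0%) had a weak region alone, beside 1.41% of all genes. Irf7, a transcription factor of the interferon response, had 0.487 and 0.597 (chr7:141266360-141266556). Axl, a receptor tyrosine kinase that takes part in clearance of dying cells, had 0.348 and 0.392 (chr7:25788601-25788856). C4b, a complement component, had 0.303 in replicate 1 and 0.267 in replicate 2 (chr17:34743865-34744014) and is thus a case of a higher value in replicate 1. Another listed gene, Clec7a, was not matched by name and was not counted. Of the 23 genes 10 had a region in both shorter lists, 2 had one in 1 shorter list at most and 8 had no reproduced region.

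Single genes stood in other glial and vascular lists, where each share rests on 1 gene and stands beside 1.41% of all genes. Of 20 microglial genes 1 (5%) had weak regions alone. It was Runx1, a factor of the myeloid lineage, with 2 regions at start sites of 0.417 and 0.633 (chr16:92697297-92697598) and of 0.378 and 0.544 (chr16:92696761-92696902). Trem2, a microglial lipid receptor, had a weak region with 0.512 and 0.383 beside one in both shorter lists. Of the other microglial genes 6 had a region in both shorter lists and 13 had no reproduced region. Mog, a myelin protein and 1 of 17 oligodendrocyte genes, had 0.338 and 0.464. Among the other oligodendrocyte genes 7 had a region in both shorter lists, 2 had one in 1 shorter list at most and 7 had no reproduced region. Myh11, smooth muscle myosin and 1 of 10 mural cell genes, had 0.313 and 0.410. Among the other mural cell genes 2 had a region in both shorter lists and 7 had no reproduced region. Olig2, the lineage factor of oligodendrocytes, had a weak region of 0.293 and 0.481, 557 bp upstream of a start site, beside one in 1 shorter list.

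**Figure D5:**
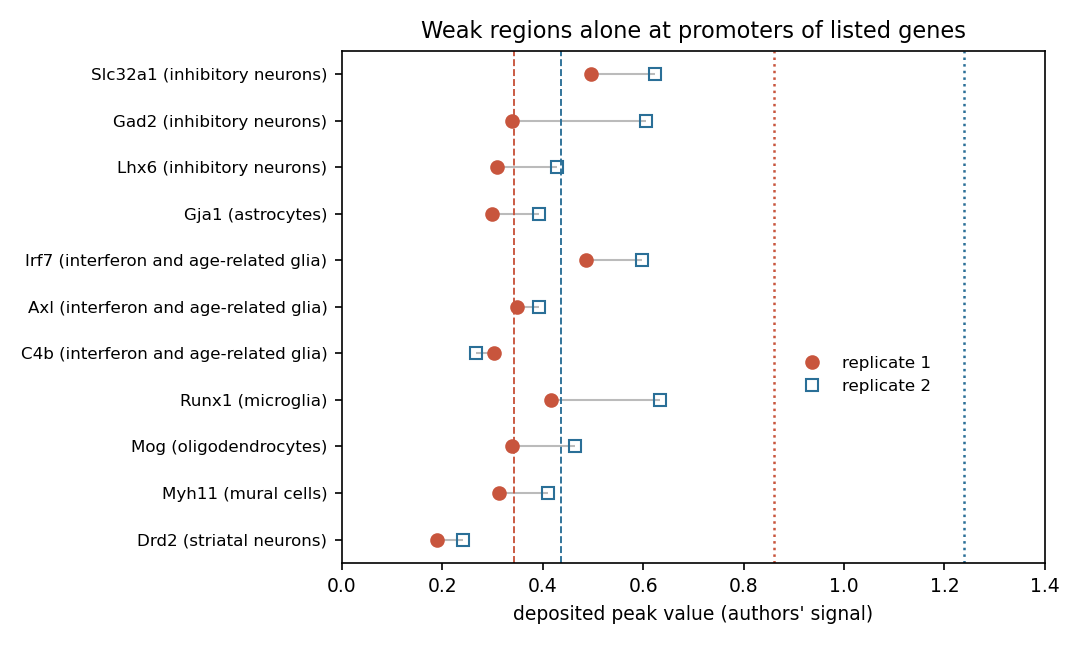
Deposited value in replicate 1 (filled circles) and replicate 2 (open squares) of the strongest weak region at 11 of the 12 listed genes for which weak regions were the only reproduced ones at a start site. The remaining gene is not shown, and the caption does not cover it. Dashed lines are the medians of all weak regions and dotted lines those of regions in both shorter lists, in the colour of the replicate. The 11 genes shown lie below the dotted line of each replicate, with Slc32a1 at 0.497 and 0.624.

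Lists for other brain regions, other tissues and further cell types were counted in the same way. Of 10 striatal genes 1 (10%) had a weak region alone, beside 1.41% of all genes. It was the dopamine receptor gene Drd2, with 0.189 and 0.241 (chr9:49340299-49340436). These were the lowest values among the 12 listed genes, and no footprint overlapped the region in either replicate. Among the other striatal genes 6 had a region in both shorter lists and 3 had no reproduced region. None of 10 cerebellar, 15 hepatocyte, 15 striated muscle, 10 lymphocyte, 10 choroid plexus and 18 endothelial genes had a weak region alone, and neither did any of 10 oligodendrocyte precursor and 13 housekeeping genes. All 15 hepatocyte genes and 12 of 15 muscle genes were without any reproduced promoter region. Gapdh, a housekeeping enzyme of glycolysis, had a weak region of 0.666 and 0.562 beside stronger ones.

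Away from promoters, the genes with the most weak regions were Kalrn, Nav2, Rbfox1, Elmo1 and Ablim1. Of the weak regions outside promoters 9572 had a protein-coding start site within 100000 bp, a mean of 0.460 per gene, against 1.73 for regions in both shorter lists. They fell to 5733 genes (27.6%). Kalrn, whose product acts in dendritic spines, had 16, of which 15 lay inside the 604 kb gene, with values from 0.368 to 0.626 in replicate 1 and from 0.473 to 0.999 in replicate 2. Nav2, a neuron navigator gene of 701 kb, had 16, all inside it, with 0.258 to 0.711 and 0.348 to 0.999. Rbfox1, a neuronal splicing factor gene of 1526 kb, had 15, Elmo1, an activator of Rac signalling, had 14, and Ablim1, an actin-binding protein, had 13. Each also held regions in both shorter lists, 34 at Kalrn, 33 at Nav2, 21 at Rbfox1, 20 at Elmo1 and 13 at Ablim1.

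The gene lists differed in the same count. Pan-neuronal genes averaged 3 distal weak regions and excitatory neuron genes 1.24, against 0.460 over all genes. Oligodendrocyte precursor genes averaged 1.30, inhibitory neuron genes 0.909, astrocyte genes 0.882, microglial genes 0.600 and hepatocyte genes 0.133. Regions in both shorter lists averaged 8.71 at pan-neuronal, 4.41 at excitatory and 0.867 at hepatocyte genes, against 1.73 over all genes. The largest number of shared footprint bases of any weak region, 37, was in a 479 bp region (chr9:119981241-119981719). The region lies 1543 bp downstream of the nearest start site, that of Csrnp1. It is inside the annotated spans of both Csrnp1 and Cx3cr1, the latter the fractalkine receptor of microglia. The values of the region were 0.726 and 1.39, and its letters were not printed because it is longer than 300 bp.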

How the data were processed

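DNase-seq peaks of 2 libraries were analysed from the processed lists. Per the deposited descriptions, peaks, footprints and intervals with a false discovery rate came from alignments to mm10. For the caller and the aligner, nothing is given in the sources used here. Each peak's value is a signal that the authors deposited, with no stated scale, and the FDR (q-value) per interval reaches 0.05 at most in the deposited lists. The authors deposited footprints with an FDR p-value threshold of 0.01. Within each library 98.6% and 97.8% of the shorter-list peaks lay inside a longer-list peak.

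Longer-list peaks of both libraries (142029 and 143055) were merged over the 19 autosomes, and overlap needed 1 bp. Midpoints were placed, in this order, at promoters (500 bp on either side of a GENCODE M21 start site), exons, introns or intergenic sequence. No chromosome held a peak beyond its end in GRCm38.p6. Gene names came from GENCODE M21 by symbol, and 1 of 277 listed genes was not matched. Shares have exact (Clopper-Pearson) 95% intervals, regions are not independent, and no test was made because membership rests on the values. Samples were 1 group, so no groups were compared.

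The members and the lists of genes and motifs were chosen with earlier results of these data known. Genes were named by rule: up to 3 per list with the highest mean log2 value at a promoter without a region in both shorter lists, 5 genes with the most distal regions, and 5 regions each by value and by shared footprint bases. Additional weak regions of listed genes, and the CTCF consensus, were picked after their values or letters were seen. Some genes that the rule takes are left out of the text. Interval steps were tested on simulated data. Alternatives changed overlap, FDR, strength, the promoter window and the replicates used. Python 3.11.15, numpy 2.4.6, pandas 2.3.3 and scipy 1.17.1 were used.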

Additional observations from a re-analysis of the deposited data

How the results depend on the processing

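Each of 68 alternative values was compared with the value reported, and 40 stayed near it while 28 moved. Some of these outcomes were fixed in advance. The promoter window cannot change the number of regions, their footprint shares or their median values, so those were counted as staying by construction. The number of regions in the stronger 50% had to move. The tally is thus not a measure of robustness. A count was held to 1.5 times, a location share to its exact interval, and a footprint share or median value to the SD between the replicates. That SD is wide for footprints, whose shares ran from 60% to 78.4% in replicate 1 and from 42.5% to 68.1% in replicate 2 over the alternatives. Requiring replicate peaks to overlap each other over 50% of the shorter one moved none. Leaving out regions under 500 bp from a shorter-list peak gave 7.41% at promoters, 50% in introns and 36.3% intergenic. An FDR of at most 0.01 in both replicates left 6226 regions and 151 genes with a weak region alone. The stronger 50% by value left 7085 regions and 172 genes, with 13.6% at promoters, 54.1% in introns, 23.9% intergenic, medians of 0.427 and 0.580 and a footprint in 68.1% in replicate 2. A promoter window of 100 bp gave 3.65% at promoters, 51.5% in introns and 35.7% intergenic, and one of 2000 bp gave 24.0%, 40% and 32.1%. Leaving out a replicate gave 54902 to 55008 regions and 891 to 950 genes. Of these regions 10.9% to 11.4% were at promoters, 45.6% to 46.7% in introns and 36% to 36.5% intergenic. Nothing then had to repeat, and peaks in the shorter list of the replicate left out were no longer excluded. Of the 12 listed genes with a weak region alone, the FDR limit kept 7 (without C4b, Drd2, Gad2, Mog and Myh11), the stronger 50% kept 6 (without Axl, C4b, Drd2, Gja1, Lhx6 and Myh11), the window of 100 bp kept 10 (without Drd2 and Gad2), and the other settings kept 11 or 12. No paired analysis was possible because there is only 1 group. The median value of weak regions stands for 69 and 49 inferred reads, and the share with a footprint was lower at fewer reads in each set.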

Other observations

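Other genes had a weak reproduced region as their only reproduced promoter region, and 5 of them were picked for mention after their values were seen. Nfib, an NFI factor of glial and neuronal development, had 0.875 in replicate 1 and 0.874 in replicate 2, and 6 weak regions and 10 regions in both shorter lists lay outside promoters nearest to it. Rara, a retinoic acid receptor, had 0.726 and 1.35. Bcan, which encodes the matrix proteoglycan brevican, had 0.696 and 0.883. Slc17a6, a vesicular glutamate transporter found mainly in subcortical neurons, had 0.452 and 0.936. Chst1, a sulfotransferase, had 0.835 and 1.14, in a wide region on chromosome 2. Of these 5 genes, 4 had the higher value in replicate 2, and the values of Nfib were nearly equal.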
